A study of Mus musculus with 70 samples.

Results

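The genes described here are 44 genes of the endoplasmic reticulum (ER): 11 chaperones and cochaperones, 7 enzymes of disulfide bond formation, 9 components of the translocon and of its associated complex, 7 genes of ER-associated degradation (ERAD), and 10 sensors, transcription factors and effectors of ER stress signalling. They were chosen by name from a pituitary RNA sequencing table of 22835 gene symbols. The question was whether the secretory load of the gland differed with thyroid state. The rule uses no measured value, but the members were chosen with earlier results of these data known. Each gene was represented by its transcript with the highest mean level. Of the 44 genes, 43 passed a filter of more than 1 CPM, the reads of a transcript scaled to the size of its library, in all 18 libraries. Sec61g, a small subunit of the translocon, ranged from 0.691 to 3.49 CPM and was not tested.

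Whole pituitaries came from adult male C57BL/6J mice aged 2 to 4 months, either wild-type (WT) or deficient in thyroid hormone receptor β (TRβ, encoded by Thrb; Thrb-KO) on the same background. To block the thyroid gland, all mice received perchlorate (1%) together with methimazole (MMI, 0.05%) in drinking water for 4 or 5 weeks, and the hyperthyroid groups also received triiodothyronine (T3) at 0.5 µg/ml in the final week. The groups were hypothyroid WT (n = 4), hyperthyroid WT (n = 4), hypothyroid Thrb-KO (n = 5) and hyperthyroid Thrb-KO (n = 5), with 3 pituitaries pooled in each library. No untreated group was analysed in the RNA data, so each T3 effect is the difference between hyperthyroid and hypothyroid mice. Binding sites of TRβ came from pituitary and cerebral cortex of untreated male mice homozygous for a biotin-tagged receptor (Thrb-HAB) and for the BirA ligase. Their controls carried the BirA ligase alone. The background of these crosses was mixed and included C57BL/6J and FVB/N. T3-regulated open chromatin came from anterior pituitary nuclei of hypothyroid and hyperthyroid male mice. They carried a Cre driven by the Thrb gene and a Sun1-GFP nuclear tag, on a mixed background with C57BL/6J.

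Proteins destined for secretion, such as the pituitary hormones, enter the ER through the translocon, fold with the help of chaperones, and receive disulfide bonds and glycans there. Proteins that fail to fold are returned to the cytosol and degraded by ERAD. When the folding load exceeds capacity, the sensors IRE1, PERK and ATF6 raise the expression of chaperones and ERAD genes through the transcription factors XBP1 and cleaved ATF6, and of stress effectors through ATF4. In hormone-producing cells these genes are expressed at all times, since the hormones are themselves the main cargo.

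Total reads per library ranged from 21453548 to 55273749. Libraries of replicates 1 and 2 differed from those of replicates 3 to 5 in every group, with Lars2 at 2571 to 3420 CPM in the former and 53.2 to 95.1 CPM in the latter. The labels name 2 library kits without saying which library was made with which, so values are also given within the replicates 1 and 2 and within the replicates 3 to 5. The members themselves differed between these sets, with 32 of 43 higher in the later replicates of hypothyroid WT (median log2 difference 0.27, all genes -0.03) and 31 of 43 in hypothyroid Thrb-KO (median 0.12). Hyperthyroid WT replicate 3 stood apart, with the highest level of Gh, the growth hormone gene, at 159094 CPM, and of Prl, the prolactin gene, at 53184 CPM. Thrb itself ranged from 239 to 297 CPM in hypothyroid WT, from 72.4 to 124 CPM in hyperthyroid WT and from 228 to 301 CPM in Thrb-KO. A count over the whole transcript therefore does not check the knockout.

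The members did not move as a block after T3. In WT mice 10 members were lower and 2 were higher at an adjusted p under 0.05, against 12.4% and 6.89% of the 13145 genes tested. Tests used limma on log2(CPM + 1) with Benjamini-Hochberg adjustment over all genes tested, and all changes are on this scale. The lower members included 6 of 11 chaperones, 2 of 7 disulfide enzymes, 1 of 7 ERAD genes and Creb3l1, while Chac1 and Trib3 were higher and no translocon gene was called. With a change of at least 1.5-fold also required, 8 members were lower and 2 were higher, against 5.59% and 3.87% of all genes. The median change of the 43 members was -0.11, beside -0.04 for all genes. Scaling by trimmed mean (TMM) factors moved the split of all genes from 906 higher and 1630 lower to 1278 higher and 1413 lower, and left 10 members lower and 3 higher. With the replicate number as a block, 15 members were lower and 5 higher, against 18.6% and 10.3% of all genes. When only the WT groups were fitted, 4 members were lower (Creb3l1, Derl3, Pdia3 and Pdia6) and 2 higher, against 6.47% and 3.87% of all genes, and none of the 6 chaperone calls passed, with adjusted p from 0.051 for Creld2 to 0.098 for Hyou1.

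In Thrb-KO mice 1 member, Pdia3, was lower after T3 and none was higher, against 1.09% and 0.7% of all genes. The fit with the replicate block called 0 members higher and 7 lower, against 1.38% and 2.3% of all genes: Calr, Creb3l1, Derl3, Hsp90b1, Pdia3, Pdia6 and Sdf2l1. The libraries of the T3 and hypothyroid groups did not overlap for 8 members, all lower after T3, where 3.53% of all genes were separated in that direction and 2.05% in the other: Calr, Sdf2l1, Manf, Pdia3, Pdia4, Pdia6, Ssr4 and Sel1l. In WT mice 7 members were separated and lower and 2 were separated and higher, against 11.7% and 5.66% of all genes. In Thrb-KO mice 10 members were lower and 0 higher at an unadjusted p under 0.05, against 4.84% and 3.35% of all genes. With edgeR on the reads 1 member was lower and 0 were higher, against 1.33% and 0.966% of all genes, and with DESeq2 4 were lower and 0 higher, against 2.1% and 1.56%.

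**Figure D1:**
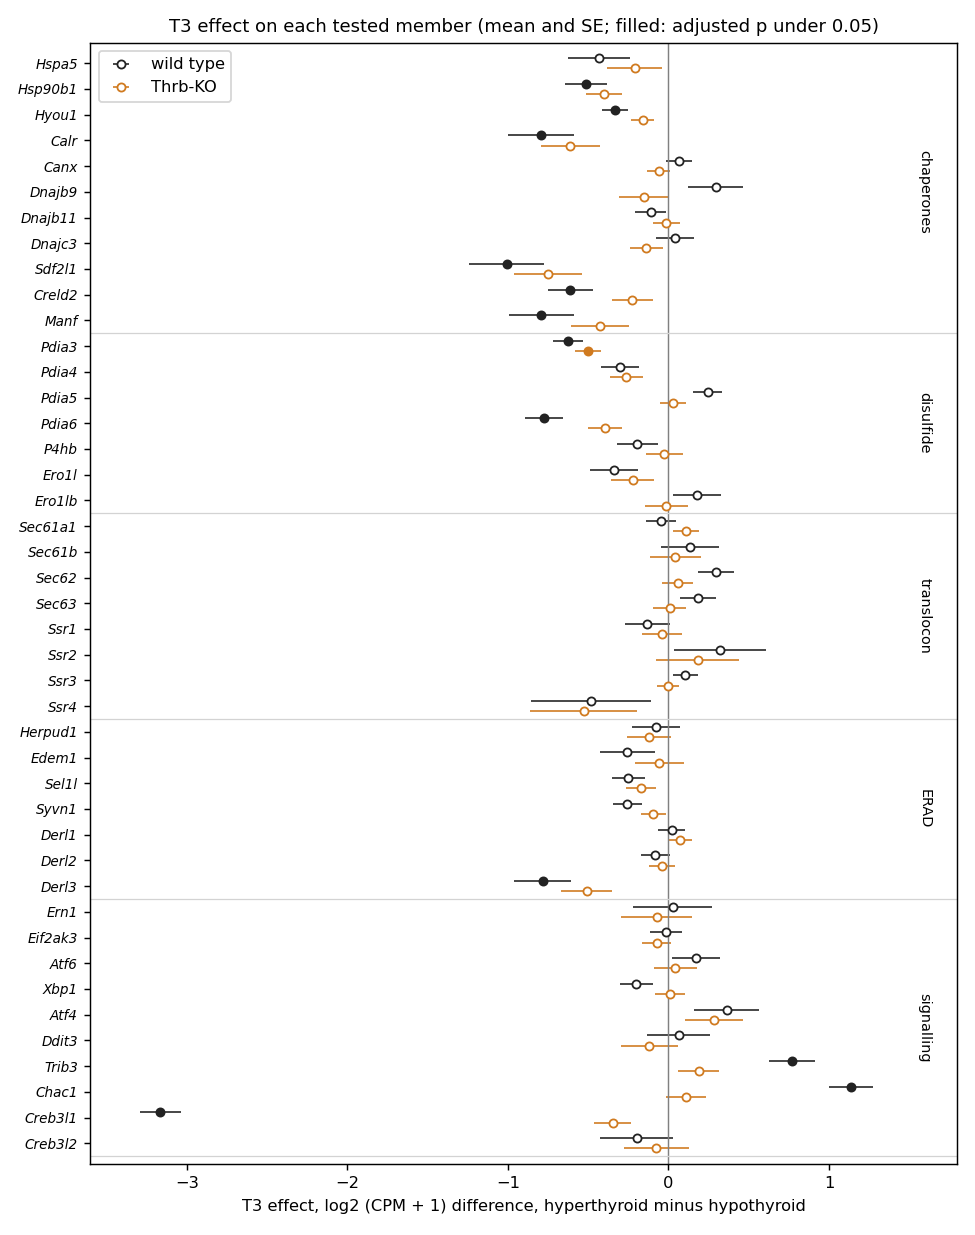
The T3 effect on each of the 43 tested members, as the log2(CPM + 1) difference between hyperthyroid and hypothyroid mice with its standard error (x axis), for WT (black) and Thrb-KO mice (orange), by role; filled points have an adjusted p under 0.05. Creb3l1 stood far to the left in WT mice at -3.16, Chac1 farthest to the right at 1.14, and the filled points at the top are folding genes.

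Among the chaperones, the 2 most general helpers behaved alike in direction but not in the test. Hspa5 encodes BiP, the Hsp70 chaperone of the ER lumen and the main sensor partner of the stress pathway. Its levels were 684, 723, 1133 and 1031 CPM in hypothyroid WT and 579, 626, 591 and 815 CPM in hyperthyroid WT. In Thrb-KO mice Hspa5 measured 685, 619, 879.9, 921 and 1023 CPM without T3 and 569, 574, 793, 775 and 843 CPM with T3. The groups overlapped over all libraries in both genotypes, but within each set of replicates every T3 library was below every hypothyroid library. The change in WT mice did not pass the test (log2 change -0.43, SE 0.19, adjusted p = 0.15), with -0.22 in replicates 1 and 2 and -0.64 in replicates 3 and 4, and it passed with the replicate block (adjusted p = 0.0041).

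Hsp90b1 encodes GRP94, the Hsp90 chaperone of the ER. It measured 728, 852, 1066 and 995 CPM in hypothyroid WT and 579.9, 666, 602 and 679 CPM in hyperthyroid WT. Thrb-KO mice had 814, 765, 907, 954 and 1105 CPM when hypothyroid and 615, 652, 708, 782 and 668 CPM when hyperthyroid. All 4 WT libraries with T3 lay below the 4 without, whereas 1 hyperthyroid Thrb-KO library exceeded the lowest hypothyroid one. Hsp90b1 fell in WT mice (log2 change -0.51, SE 0.13, adjusted p = 0.0070). In Thrb-KO mice the change was -0.40 with an adjusted p of 0.11, or 0.012 with the block.

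Calr encodes calreticulin, a lectin chaperone that binds glycoproteins and stores calcium. Levels of Calr were 503, 479, 879 and 784 CPM in hypothyroid WT and 304, 304, 489 and 407 CPM in hyperthyroid WT. They were 451, 467, 531, 594 and 727 CPM in hypothyroid Thrb-KO and 318, 298, 385, 418 and 380.3 CPM in hyperthyroid Thrb-KO. In WT mice the groups overlapped only across the library sets, since the third T3 library lay above the second hypothyroid library and no pair within a set crossed. In Thrb-KO mice they did not overlap. Calr fell in WT mice (log2 change -0.79, SE 0.21, adjusted p = 0.0096), by a similar amount in replicates 1 and 2 (-0.69) and in replicates 3 and 4 (-0.89). The Thrb-KO change of -0.61 had an adjusted p of 0.14, and of 0.0011 with the block. Canx, the membrane-bound relative of calreticulin, gave 0.06 in WT mice and -0.06 in Thrb-KO mice and was not called.

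Hyou1, an Hsp110-type exchange factor for BiP, measured 322, 303, 339 and 317 CPM in hypothyroid WT and 283, 259, 224 and 254 CPM in hyperthyroid WT. Hypothyroid Thrb-KO libraries held 308, 319.5, 304, 296 and 348 CPM and hyperthyroid ones 301, 268, 284, 269 and 287 CPM. The WT groups did not overlap and the Thrb-KO groups did. Hyou1 fell in WT mice by less than the other called chaperones (log2 change -0.33, SE 0.08, adjusted p = 0.0058), and the Thrb-KO value was -0.16.

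Sdf2l1, a partner of the ER DnaJ proteins, had the largest chaperone change. It measured 47.7, 37.3, 62.3 and 69.8 CPM in hypothyroid WT and 19.6, 17.1, 46.8 and 27.5 CPM in hyperthyroid WT. In Thrb-KO mice it measured 41.5, 41.3, 40.4, 39.6 and 50.4 CPM without T3 and 22.4, 20.7, 27.5, 26.2 and 28.3 CPM with T3. The third hyperthyroid WT library was higher than the other 3 and lay among the hypothyroid values of the other library set, while the Thrb-KO groups were fully apart. Sdf2l1 fell in WT mice (log2 change -1.01, SE 0.23, adjusted p = 0.0042), with an adjusted p of 5.7e-05 without hyperthyroid WT replicate 3. The Thrb-KO change was -0.75 (adjusted p = 0.092), called with the block (adjusted p = 0.0085) and without that WT library (adjusted p = 0.0085).

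Manf, a secreted and ER-resident protein that protects stressed cells, measured 168, 153, 234 and 242 CPM in hypothyroid WT and 85.4, 91.0, 192 and 107 CPM in hyperthyroid WT. Thrb-KO libraries held 129, 119, 128, 134 and 164 CPM without T3 and 88.1, 92.9, 98.9, 107 and 112 CPM with T3. Replicate 3 of the hyperthyroid WT mice again stood high, and apart from it the WT groups did not overlap. Manf fell in WT mice (log2 change -0.79, SE 0.20, adjusted p = 0.0086), and this call was lost with edgeR on the reads (adjusted p = 0.061). The Thrb-KO change of -0.43 did not pass (adjusted p = 0.46).

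Creld2, an ER protein induced by stress, measured 35.0, 30.9, 46.4 and 42.0 CPM in hypothyroid WT and 22.7, 20.1, 31.1 and 25.8 CPM in hyperthyroid WT. It measured 27.1, 26.6, 29.6, 28.2 and 36.8 CPM in hypothyroid Thrb-KO and 22.8, 22.2, 26.8, 26.3 and 27.7 CPM in hyperthyroid Thrb-KO. Within each library set the WT groups were apart, and the Thrb-KO groups overlapped. Creld2 fell in WT mice (log2 change -0.61, SE 0.14, adjusted p = 0.0042), while the Thrb-KO change was -0.22 (adjusted p = 0.81). The difference between the 2 T3 effects was 0.39 with an adjusted p of 0.36, or 0.030 with the block. The remaining chaperones, Dnajb9, Dnajb11 and Dnajc3, are DnaJ cochaperones of BiP and were not called, with WT changes of 0.29, -0.11 and 0.04. All 11 chaperones had a value below 0 in Thrb-KO mice, with a median of -0.21, but none was called there by limma, where 5 had an unadjusted p under 0.05, or by edgeR, and DESeq2 called 1.

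**Figure D2:**
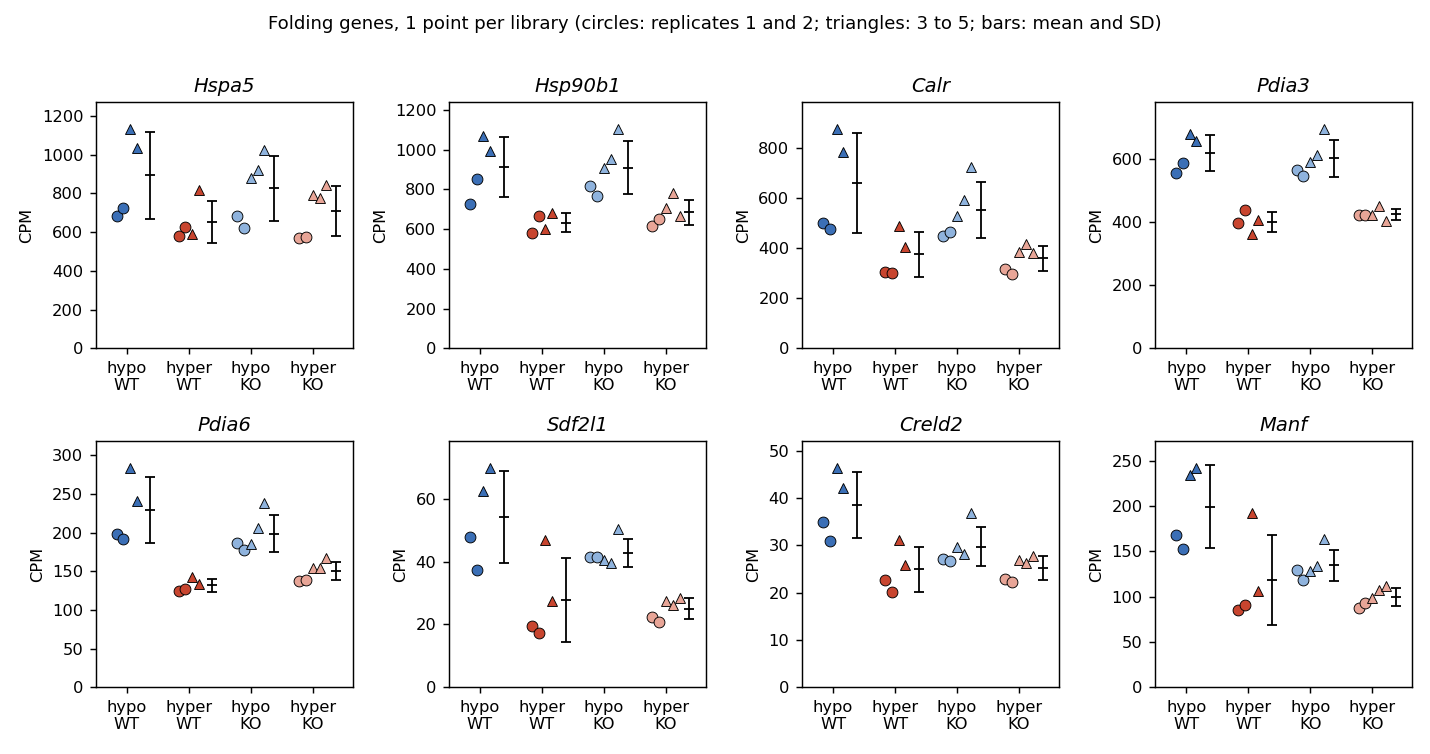
Levels in CPM (y axis, from 0) of 8 folding genes in every library by group (x axis), with circles for replicates 1 and 2, triangles for replicates 3 to 5, and bars for the mean and SD. Hyperthyroid libraries lay below hypothyroid libraries of the same symbol in WT mice for every gene shown, and triangles lay above circles in most hypothyroid groups.

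The promoters of these genes are the classic place to find the ER stress response element (ERSE), which ATF6 and XBP1 recognise with the factor NF-Y and which is known from chaperone promoters, so finding it in this list is no independent result. RefSeq promoter windows of GRCm38.p6, from 250 bases before to 50 after the start, were matched for 37 of the 44 genes. They were searched on both strands for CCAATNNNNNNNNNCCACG, and 10 of the 37 held it (27%), beside 37 of all 27025 genes with a window (0.137%). The 10 were Calr, Canx, Creld2, Derl3, Dnajc3, Ero1lb, Hsp90b1, Hspa5, Pdia6 and Syvn1. Of the members lower after T3 in WT mice with a window, 5 of 7 held the element, and of the members not called, 5 of 27 did. The matches in Hspa5 and in the lower members are printed below with 12 bases on either side, read in the direction of the element, with the matched letters in capitals. A match describes the sequence and not a bound site.
Hspa5: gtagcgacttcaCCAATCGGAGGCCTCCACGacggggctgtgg
Hsp90b1, first: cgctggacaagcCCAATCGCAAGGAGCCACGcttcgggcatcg
Hsp90b1, nearer the start: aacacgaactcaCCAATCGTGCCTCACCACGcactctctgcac
Calr: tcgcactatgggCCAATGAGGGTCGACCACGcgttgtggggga
Creld2: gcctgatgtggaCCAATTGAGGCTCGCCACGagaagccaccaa
Pdia6: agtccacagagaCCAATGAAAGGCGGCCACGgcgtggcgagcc
Derl3: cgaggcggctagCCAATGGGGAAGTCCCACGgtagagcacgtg

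These windows lie at chr2:34771840-34772139 for Hspa5, chr10:86705395-86705694 for Hsp90b1, chr8:84846882-84847181 for Calr, chr15:88819396-88819695 for Creld2, chr12:17266339-17266638 for Pdia6 and chr10:75893148-75893447 for Derl3. Hsp90b1 and Calr are read from the minus strand of the chromosome and the others from the plus strand. All the matches printed began 65 to 212 bases upstream of the start, nearest in Hspa5 and farthest in Hsp90b1. The shorter form of the element, ATTGGNCCACG, was in Dnajb11 and Herpud1 (0.0444% of all genes), and the element TGACGTGG was in 0 of the 37 windows (0.714% of all genes). The 10 members that hold ERSE gave WT changes from -0.79 to 0.18. Those called, Calr, Creld2, Derl3, Hsp90b1 and Pdia6, were all lower. Canx (0.06), Dnajc3 (0.04) and Ero1lb (0.18) were above 0 and not called, and Hspa5 and Syvn1 were below 0 and not called. The part of the element in these changes was not tested.

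Disulfide bonds are made and rearranged by protein disulfide isomerases, which are recharged by ERO1 oxidases. Pdia3 encodes ERp57, the isomerase that works on glycoproteins with calreticulin and calnexin. In the main fit it was the only member called lower after T3 in both genotypes. With the replicate block Calr, Creb3l1, Derl3, Hsp90b1, Pdia6 and Sdf2l1 were called lower in both as well. Pdia3 measured 556, 589, 681 and 657 CPM in hypothyroid WT and 397, 438, 362 and 408 CPM in hyperthyroid WT. Thrb-KO libraries held 568, 546, 593, 615 and 697 CPM without T3 and 422, 424, 423, 453 and 404 CPM with T3. All T3 libraries lay below all hypothyroid libraries in either genotype. Pdia3 fell in WT mice (log2 change -0.63, SE 0.09, adjusted p = 5.4e-05) and in Thrb-KO mice (log2 change -0.50, SE 0.08, adjusted p = 0.0012), and the test of the difference gave 0.13 with an adjusted p of 0.82. Both calls held in all 31 alternative fits.

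Pdia6, an isomerase that also binds BiP, measured 199, 192, 284 and 242 CPM in hypothyroid WT and 125, 127, 143 and 134 CPM in hyperthyroid WT. In Thrb-KO mice it measured 187, 178, 186, 206 and 238 CPM without T3 and 138, 139, 154, 154 and 167 CPM with T3. The groups did not overlap in either genotype. Pdia6 fell in WT mice (log2 change -0.77, SE 0.12, adjusted p = 8.4e-05), more in replicates 3 and 4 (-0.91) than in replicates 1 and 2 (-0.63). In Thrb-KO mice the change was -0.40 (adjusted p = 0.070), called with the block (adjusted p = 0.0034) and without hyperthyroid WT replicate 3 (adjusted p = 0.044). The difference between genotypes was 0.38 (adjusted p = 0.23, with the block 0.031).

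P4hb encodes PDI itself, the most studied isomerase. It measured 308, 299, 437 and 391 CPM in hypothyroid WT and 295, 272, 317 and 361 CPM in hyperthyroid WT. Thrb-KO libraries held 286, 288, 322, 337 and 348 CPM without T3 and 289.6, 271, 330.3, 301 and 364 CPM with T3. The groups overlapped in both genotypes, and neither the WT change of -0.19 nor the Thrb-KO change of -0.02 was called. Pdia4, a further isomerase, gave -0.30 in WT mice (adjusted p = 0.083, with the block 0.0093), and the oxidase Ero1l gave -0.34 (adjusted p = 0.13, with the block 0.010). Its paralog Ero1lb gave 0.18, with opposite signs in replicates 1 and 2 (0.44) and in replicates 3 and 4 (-0.09).

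Pdia5, an isomerase of the same family, differed in another comparison. It measured 17.0, 15.6, 21.5 and 18.7 CPM in hypothyroid WT and 21.1, 21.4, 21.8 and 22.0 CPM in hyperthyroid WT. Thrb-KO libraries held 13.7, 14.7, 14.6, 15.1 and 15.9 CPM without T3 and 14.8, 14.3, 14.8, 14.4 and 17.2 CPM with T3. All 5 hyperthyroid Thrb-KO libraries lay below all 4 hyperthyroid WT libraries, and the difference passed the test (log2 change -0.49, SE 0.09, adjusted p = 0.0007). The T3 effect in WT mice was 0.24 (adjusted p = 0.071, with the block 0.026). The difference between genotypes in hypothyroid mice was -0.27 (adjusted p = 0.067, with the block 0.012).

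No translocon gene was called by limma in any of the 4 pairwise comparisons. At an unadjusted p under 0.05, 1 was higher after T3 in WT mice, where 3776 of the 13145 genes tested differed in either direction. In the other pairwise comparisons 0 differed, where 1077 to 3213 of all genes did. After T3 in WT mice edgeR called 1 and DESeq2 called 2 higher, against 9.55% and 11.9% of all genes. Sec61a1, the pore-forming subunit, measured 119, 109.8, 135 and 137 CPM in hypothyroid WT and 115, 107, 129 and 134 CPM in hyperthyroid WT. It measured 110.2, 113, 117, 122 and 125 CPM in hypothyroid Thrb-KO and 126, 114, 135, 123 and 136 CPM in hyperthyroid Thrb-KO. These ranges overlapped in every pair of groups. Its change was -0.05 in WT mice (SE 0.09) and 0.11 in Thrb-KO mice, and the sign in WT mice turned with TMM scaling. The 8 tested translocon genes had a median WT change of 0.12. Sec62, which serves post-translational entry, gave 0.30 (adjusted p = 0.069, with the block 0.0024). Ssr4, a subunit of the translocon-associated complex, spread from 33.8 to 179 CPM over all libraries and gave -0.48 with an SE of 0.37.

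ERAD removes misfolded proteins through a membrane channel and a ubiquitin ligase. Derl3, a member of the Derlin family of channel proteins, had few reads, 79 to 347 per library. It measured 7.16, 6.18, 7.97 and 8.81 CPM in hypothyroid WT and 3.91, 3.11, 4.66 and 4.14 CPM in hyperthyroid WT. Thrb-KO libraries held 5.95, 4.22, 4.27, 3.29 and 7.71 CPM without T3 and 3.72, 2.70, 2.91, 2.81 and 3.68 CPM with T3. The WT groups did not overlap, whereas the Thrb-KO groups did. Derl3 fell in WT mice (log2 change -0.78, SE 0.18, adjusted p = 0.0034). In Thrb-KO mice its change was -0.51 (adjusted p = 0.15, with the block 0.027). Its relatives Derl1 and Derl2 gave 0.02 and -0.08 in WT mice and were not called.

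Herpud1, a membrane protein that organises the ERAD complex and responds to ER stress, measured 78.8, 79.1, 131 and 120.1 CPM in hypothyroid WT and 87.5, 89.3, 91.9 and 109.8 CPM in hyperthyroid WT. It measured 101, 88.8, 113, 111 and 114 CPM in hypothyroid Thrb-KO and 94.7, 79.7, 109, 97.6 and 105 CPM in hyperthyroid Thrb-KO. These ranges overlapped between groups. The WT change of -0.08 (adjusted p = 0.82) combined 0.16 in replicates 1 and 2 and -0.32 in replicates 3 and 4. Syvn1, the ubiquitin ligase HRD1, gave -0.26 in WT mice with no overlap of the groups (adjusted p = 0.052, with the block 0.029). Sel1l, the adaptor of this ligase, gave -0.25 (adjusted p = 0.11, with the block 0.041). Edem1, which recognises trimmed glycans, gave -0.26.

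The signalling genes held the largest changes of the list, in both directions. Creb3l1, also known as OASIS, is a transcription factor anchored in the ER membrane and released by cleavage, with secretory and matrix genes among its known targets. It measured 156, 134, 195 and 193 CPM in hypothyroid WT and 19.1, 16.6, 19.1 and 16.4 CPM in hyperthyroid WT. Thrb-KO libraries held 28.0, 26.7, 24.6, 25.3 and 33.9 CPM without T3 and 21.5, 20.1, 21.0, 18.9 and 26.3 CPM with T3. The 4 hypothyroid WT libraries stood alone at 134 CPM or more, and the libraries of the other 3 groups lay between 16.4 and 33.9 CPM. Creb3l1 fell after T3 in WT mice (log2 change -3.16, SE 0.13, adjusted p = 8.8e-12), to a ratio of mean CPM of 0.105. It was also lower in Thrb-KO than in WT when both were hypothyroid (log2 change -2.56, SE 0.12, adjusted p = 3.4e-10), at a ratio of 0.164. Both comparisons share the hypothyroid WT libraries. In Thrb-KO mice the T3 effect was -0.35 (adjusted p = 0.21, with the block 0.038), and between hyperthyroid groups the difference was 0.25 (adjusted p = 0.21). The T3 effects of the genotypes differed (log2 change 2.82, SE 0.17, adjusted p = 1.0e-08). Since whole glands were sequenced, fewer cells of a type and less RNA per cell cannot be told apart, here or for any other member. Its paralog Creb3l2 measured between 179 and 367 CPM and gave -0.20 in WT mice and -0.08 between hypothyroid genotypes.

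Chac1 encodes an enzyme that degrades glutathione and is a known effector of the PERK and ATF4 branch. It measured 3.31, 3.47, 4.48 and 4.93 CPM in hypothyroid WT and 10.9, 7.78, 11.3 and 10.4 CPM in hyperthyroid WT. Thrb-KO libraries held 2.80, 3.89, 3.76, 3.81 and 4.09 CPM without T3 and 4.73, 4.29, 4.24, 3.91 and 3.03 CPM with T3. The 4 hyperthyroid WT libraries lay above the other 14, which all measured under 5 CPM. These levels rest on 65 to 486 reads per library. Chac1 rose after T3 in WT mice (log2 change 1.14, SE 0.14, adjusted p = 7.5e-06), or by 1.38 with edgeR, which is less bound by the added 1 CPM. In hyperthyroid mice it was lower in Thrb-KO than in WT (log2 change -1.14, SE 0.13, adjusted p = 9.3e-06), a comparison that shares the hyperthyroid WT libraries with the former. The T3 effect in Thrb-KO mice was 0.11, and the T3 effects of the genotypes differed (log2 change -1.03, SE 0.19, adjusted p = 0.0020).

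Trib3, a pseudokinase induced by ATF4 and CHOP that dampens their action, measured 1.94, 2.19, 2.89 and 3.63 CPM in hypothyroid WT and 4.84, 5.22, 4.58 and 6.07 CPM in hyperthyroid WT. It measured 1.57, 1.54, 1.94, 2.37 and 1.60 CPM in hypothyroid Thrb-KO and 1.77, 1.75, 2.76, 2.43 and 2.28 CPM in hyperthyroid Thrb-KO. Again the hyperthyroid WT libraries were above all others, on 46 to 232 reads per library. Trib3 rose in WT mice (log2 change 0.77, SE 0.14, adjusted p = 0.00065) and was lower in hyperthyroid Thrb-KO than in hyperthyroid WT (log2 change -0.95, SE 0.14, adjusted p = 9.5e-05). In Thrb-KO mice the T3 effect was 0.19. The difference between the T3 effects was -0.58 (adjusted p = 0.10, with the block 0.012), so it passed with the block or with the library set as a term. Between hypothyroid genotypes the difference was -0.37 (adjusted p = 0.13, with the block 0.024).

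Atf4 itself, the factor of this branch, measured 62.6, 57.5, 80.4 and 84.9 CPM in hypothyroid WT and 72.3, 63.7, 150.0 and 98.1 CPM in hyperthyroid WT. Thrb-KO libraries held 57.9, 59.0, 66.0, 67.1 and 64.1 CPM without T3 and 66.0, 63.7, 86.2, 77.0 and 94.5 CPM with T3. The highest library was hyperthyroid WT replicate 3, and the WT groups overlapped. The WT change was 0.36 (adjusted p = 0.26, with the block 0.046), and without that library the adjusted p was 0.63. ATF4 is controlled mainly through translation, which RNA levels do not show.

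Ddit3 encodes CHOP, the factor of prolonged stress. It measured 10.7, 9.15, 15.5 and 16.9 CPM in hypothyroid WT and 9.83, 10.2, 19.9 and 15.5 CPM in hyperthyroid WT. Thrb-KO libraries held 11.7, 11.4, 13.2, 13.3 and 14.0 CPM without T3 and 10.2, 9.99, 13.3, 12.6 and 12.3 CPM with T3. The levels followed the library sets more than the groups, with low values in replicates 1 and 2 throughout. Its WT change was 0.06 (adjusted p = 0.89).

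Xbp1, the factor activated by IRE1 through splicing of its transcript, measured 199.8, 199.7, 257 and 235 CPM in hypothyroid WT and 201, 186, 171 and 216 CPM in hyperthyroid WT. It measured 216, 198, 239, 233 and 243 CPM in hypothyroid Thrb-KO and 208, 204, 246, 236 and 246 CPM in hyperthyroid Thrb-KO. The groups overlapped, and the changes were -0.20 in WT (adjusted p = 0.23) and 0.01 in Thrb-KO. The table has 1 Xbp1 transcript, so the spliced and unspliced forms cannot be told apart. The sensors Ern1 (IRE1), Eif2ak3 (PERK) and Atf6 gave WT changes of 0.03, -0.02 and 0.17, and none was called.

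**Figure D3:**
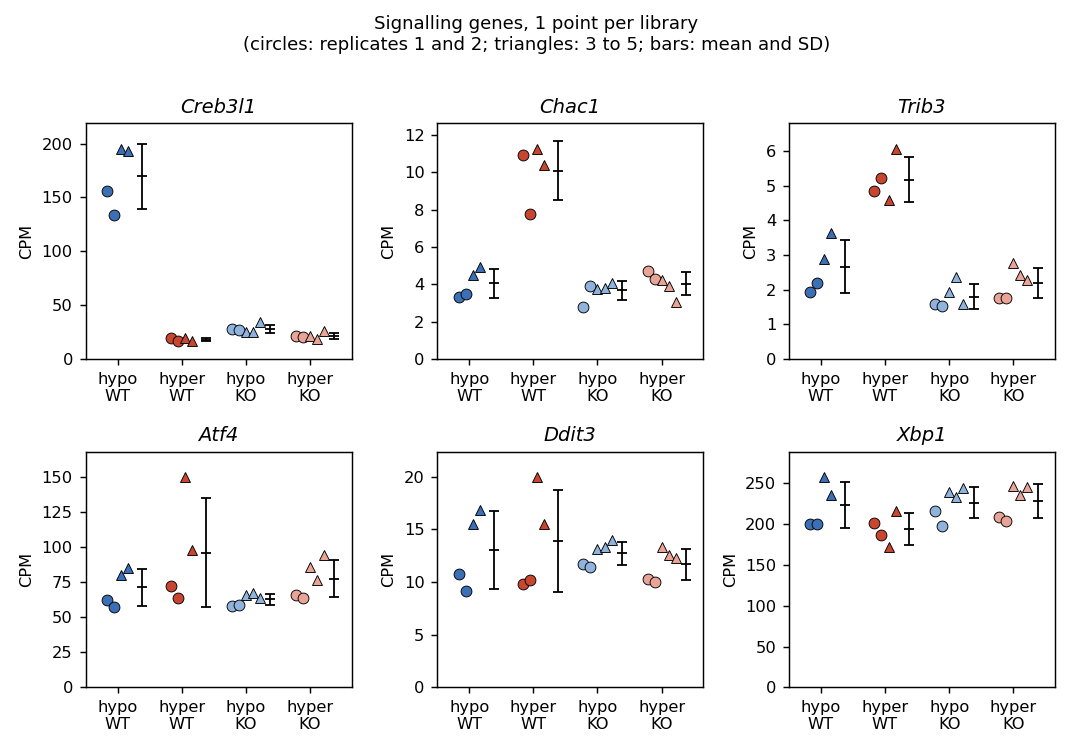
Levels in CPM (y axis, from 0) of 6 signalling genes in every library by group (x axis), with circles for replicates 1 and 2, triangles for replicates 3 to 5, and bars for the mean and SD. Creb3l1 was high in hypothyroid WT alone, Chac1 and Trib3 were high in hyperthyroid WT alone, and Atf4, Ddit3 and Xbp1 overlapped between groups.

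Between genotypes in hypothyroid mice, Creb3l1 was the only member called, against 4.12% of all genes lower and 2.73% higher, and 6 members were lower and 0 higher at an unadjusted p under 0.05, against 8.98% and 9.4% of all genes. With edgeR 2 members were lower and 0 higher, against 5.45% and 3.04% of all genes, and with DESeq2 3 were lower and 0 higher, against 6.88% and 4.98%. The block called 7 members lower and 0 higher, against 7.32% and 7.01% of all genes: Creb3l1, Creld2, Derl3, Manf, Pdia5, Pdia6 and Trib3. Of these, Manf gave -0.54 (adjusted p = 0.11, with the block 0.012), Creld2 -0.36 (0.14, with the block 0.0021) and Derl3 -0.52 (0.073, with the block 0.0056). Pdia6 gave -0.19 (0.39, with the block 0.044). Macrophage markers moved with this comparison, with 7 of 8 tested genes lower in Thrb-KO and a summed level of 74.4 to 86.6 CPM beside 127 to 151 CPM in hypothyroid WT. Their part in these values was not tested.

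In hyperthyroid mice 3 members were lower in Thrb-KO and none higher, against 4.3% and 7.77% of all genes: Chac1, Trib3 and Pdia5. TMM scaling moved the split of all genes in this comparison from 1021 higher and 565 lower to 814 higher and 853 lower. It left the member counts at 3 lower and 0 higher. In the main limma fit 1 member was higher and 3 lower at an unadjusted p under 0.05, where 3213 of the 13145 genes differed in either direction. Of 8 macrophage markers, 3 were lower, and their summed level was 75.5 to 99.2 CPM in Thrb-KO and 95.5 to 175 CPM in WT. The 4 tested folliculostellate markers all had values below 0, with 1 called (Aldh1a2, -0.59), and the summed level of the 5 listed was 59.8 to 76.0 CPM in Thrb-KO and 85.1 to 106 CPM in WT, with no overlap. The part of either marker list in these values was not tested. The T3 effects of the genotypes differed for 2 members, Creb3l1 and Chac1, against 3.29% of all genes in the positive and 2.17% in the negative direction. With the block, Creld2, Pdia6 and Trib3 were added, for 3 positive and 2 negative, against 6.71% and 4.08% of all genes.

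The summed level of the 44 genes was lower in hyperthyroid than in hypothyroid libraries. They took 0.812% ± 0.0886 of all reads (SD, n = 4) in hypothyroid WT, 0.661% ± 0.0189 (n = 4) in hyperthyroid WT, 0.761% ± 0.0590 (n = 5) in hypothyroid Thrb-KO and 0.662% ± 0.0210 (n = 5) in hyperthyroid Thrb-KO. The libraries with T3 lay between 0.636% and 0.692% and those without between 0.701% and 0.899%, with no overlap. With TMM scaling the WT groups overlapped, since hyperthyroid libraries reached 0.768% and hypothyroid ones began at 0.697%. The Thrb-KO groups stayed apart, with hyperthyroid libraries up to 0.678% and hypothyroid ones from 0.687%. The sum is dominated by a few abundant transcripts, and a sum over chosen genes was given no test. Chaperones took 0.390% in hypothyroid WT and 0.296% in hyperthyroid WT, and translocon genes 0.111% and 0.118%.

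The summed level of the 7 hormone genes moved the other way over the same libraries. It went from 8.21% ± 1.44 of reads in hypothyroid WT to 15.1% ± 5.12 in hyperthyroid WT, and from 8.59% ± 0.802 to 11.6% ± 1.14 in Thrb-KO. Gh rose in WT mice by 1.03 and Prl by 1.70, while Tshb and Cga, the thyrotropin subunit genes, gave -4.95 and -2.55 and fell. Outside the hormone reads, the 44 genes took 0.775% to 0.997% in hypothyroid WT and 0.734% to 0.840% in hyperthyroid WT, which overlapped. In Thrb-KO mice they took 0.759% to 0.939% without T3 and 0.717% to 0.781% with T3, which overlapped as well. Within the replicates 1 and 2 and within the replicates 3 to 5, every T3 library lay below every hypothyroid library of the same genotype. The part of the hormone reads in the lower sums was not tested.

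**Figure D4:**
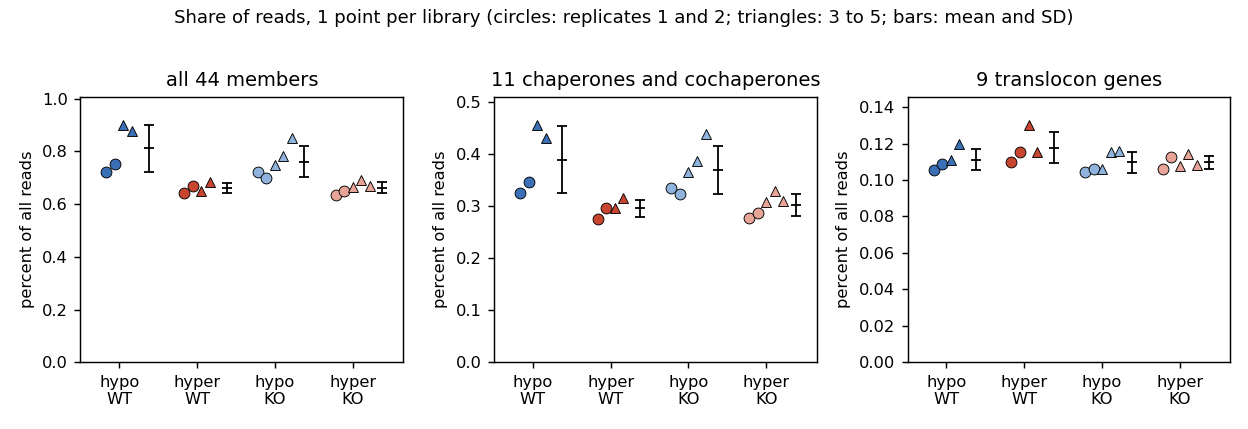
Share of all reads in percent (y axis, from 0) taken by the 44 genes, by the 11 chaperones and by the 9 translocon genes in every library by group (x axis), with bars for the mean and SD. For the 44 genes the libraries with T3 lay at or below 0.692% and those without at or above 0.701%. With TMM scaling the WT groups overlapped and the Thrb-KO groups did not. The translocon shares overlapped.

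Wider lists of the pathway moved unevenly in WT mice. Of their 118 tested genes, 25 were lower (21.2%) and 8 higher (6.78%) after T3, beside 12.4% and 6.89% of all genes. Of 27 folding genes outside the 44, 8 were lower (29.6%) and none was higher, with the peptidyl-prolyl isomerases Fkbp7 (-1.57), Fkbp14 (-1.11) and Fkbp11 (-0.89), the thioredoxin-like Txndc12 (-0.86) and Sil1 (-0.84), an exchange factor of BiP, changing most. Of 16 genes of N-glycosylation and glycan trimming, 8 were lower (50%) and 2 higher (12.5%). The lower ones included the oligosaccharyltransferase subunits Tusc3 (-0.98), Rpn2 (-0.78) and Dad1 (-0.61), the glucosidase subunit Prkcsh (-0.70) and the glucosyltransferase Uggt1 (-0.57). Clgn, a calnexin relative best known from testis, was higher (0.80), as was the oligosaccharyltransferase subunit Magt1 (0.40).

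Of 17 genes of targeting and entry, the signal recognition genes Srp72 (0.48) and Srpr (0.39) were higher (11.8% of the list) and none lower. Among 17 further ERAD genes, Edem2 (-0.98) and Erlec1 (-0.71) were lower and Ube2g2 (0.49) was higher, which was 11.8% and 5.88% of the list and near the shares over all genes. In a list of 18 further genes induced by the unfolded protein response, the cargo receptor Lman1 (-0.55) and Ufm1 (-0.26) were lower (11.1%), again near the share over all genes. Known ATF4 targets went in both directions, with 3 of 23 higher (13%) and 5 lower (21.7%). Cebpb (0.95), Atf5 (0.64) and Shmt2 (0.36) rose. Nupr1 (-1.46), Vldlr (-1.32), the amino acid transporter subunit Slc3a2 (-0.68), the asparagine synthetase gene Asns (-0.52) and Aldh18a1 (-0.28) fell. The 15 others did not pass the test.

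In Thrb-KO mice the 6 wider lists held 2 called genes, Clgn (higher, 0.44) and Erlec1 (lower, -0.48), each 0.847% of the 118 genes beside 0.7% of all genes higher and 1.09% lower. The T3 effects of the genotypes differed for Fkbp7 (1.20), Fkbp14 (0.81), Edem2 (0.82), Vldlr (1.13), Tusc3 (0.64), Slc3a2 (0.63), Prkcsh (0.62) and Srp72 (-0.44). These were 7 positive (5.93%) and 1 negative difference (0.847%), beside 3.29% and 2.17% of all genes.

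In hypothyroid mice 13 genes of the wider lists were lower in Thrb-KO than in WT (11%) and 3 higher (2.54%), beside 4.12% and 2.73% of all genes. The lower ones were the folding genes Fkbp7 (-1.47), Fkbp9 (-0.65), Fkbp14 (-0.65) and Qsox1 (-0.39), the glycan genes Dad1 (-0.63), Prkcsh (-0.62) and Tusc3 (-0.36), Edem2 (-0.71) and Lman1 (-0.36). Among ATF4 targets they were Nupr1 (-1.28), Slc3a2 (-0.61), Pycr1 (-0.55) and Aldh18a1 (-0.31). Qsox2, a sulfhydryl oxidase like Qsox1, was higher (0.65), with Clgn (0.47) and Srp72 (0.29). In hyperthyroid mice 4 were lower in Thrb-KO (3.39%) and 2 higher (1.69%), beside 4.3% and 7.77% of all genes. Cebpb (-1.22), Ube2g2 (-0.38), Qsox1 (-0.32) and Shmt2 (-0.32) were the lower genes, and Vldlr (0.93) and Qsox2 (0.59) the higher.

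Cells that carry a large ER, other than the hormone cells, were looked for through their markers. Of 11 listed plasma and B cell gene symbols, Jchain and Mzb1 were absent from the data under these names. Only 2 symbols passed the filter and neither was called in any comparison. The summed level of the symbols present was 10.8 to 13.8 CPM in hypothyroid WT and 15.6 to 19.3 CPM in hyperthyroid WT. This was opposite in direction to the chaperones, and the defining receptor gene Tnfrsf17 was at 0 in 3 libraries. Of 6 stromal markers tested, Col1a1 (-0.73) and Col3a1 (-0.62) were lower after T3 in WT mice, while 3 of the 6 had values above 0 and the summed level, 241 to 384 CPM with T3 and 327 to 411 CPM without, overlapped. Among 6 endothelial markers Egfl7 was lower (-0.50), among 8 macrophage markers Csf1r was lower (-0.43), and among 4 folliculostellate markers Sox2 was higher (0.34). Their part in the results was not tested.

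TRβ peaks were found near members of every role. In the pituitary, 22 of the 44 genes (50%) had a TRβ peak within 20 kb of the gene body in mm9, beside 41.3% of 12898 tested genes with coordinates. In cerebral cortex, 13 (29.5%) had one, beside 34.8%. Of the 10 members lower after T3 in WT mice, 5 had a pituitary TRβ peak and none had a T3-regulated ATAC peak, while both higher members had both. T3-regulated ATAC peaks were near 4 of the 44 genes (9.09%), Chac1, Trib3, Creb3l2 and Sec61b, beside 7.78% of all genes. The order of these shares depended on the distance: for peaks inside the gene body, members had fewer than all genes (pituitary TRβ 11.4% beside 23.5%, ATAC 2.27% beside 5.01%), and within 100 kb they had more (86.4% beside 70.8%, and 31.8% beside 18.2%). Only the positions of these ATAC peaks were used.

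The TRβ peak with the most reads among those near members was next to Chac1. The gene lies at chr2:119176965-119180117 on the plus strand (mm9), and a TRβ peak at chr2:119181351-119181750, outside the gene and centred 4585 bases downstream of its start, held 104 reads in tagged mice and 3 in control mice. A T3-regulated ATAC peak at chr2:119181435-119181687 lay inside it. The TRβ peak held a direct repeat of the receptor half-site with 4 bases between, at chr2:119181485-119181500. It is shown with 20 bases on either side on the plus strand, with the 16 bases of the repeat in capitals, and it differs from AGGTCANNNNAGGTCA at 2 of the 12 compared bases.
Chac1 peak, repeat: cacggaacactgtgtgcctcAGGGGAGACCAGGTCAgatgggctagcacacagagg

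Such a repeat with at most 2 mismatches was in 5 of the 29 pituitary peaks near members (17.2%) and in 1686 of all 8051 peaks (20.94%), so it was not more frequent near the members. The other 4 peaks were near Creld2, Pdia5, Sec63 and Xbp1. Pdia5 had the closest match, with 1 mismatch, in an intron at chr16:35476358-35476373 on the minus strand, in a peak with 62 reads against 4. It is printed on the plus strand, where it reads as the reverse complement.
Pdia5 peak, repeat: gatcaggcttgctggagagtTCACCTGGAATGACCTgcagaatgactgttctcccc

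Trib3 lies at chr2:152163158-152169768 on the minus strand. Its TRβ peak at chr2:152186251-152186500, centred at -16607 bases from its start and nearest to the start of Nrsn2, held 16 reads against 2 and lay inside a T3-regulated ATAC peak at chr2:152186064-152186546. It held no direct repeat with at most 2 mismatches. Creb3l1, at chr2:91822485-91864659 on the minus strand, had a TRβ peak at chr2:91868101-91868250, centred at -3516 bases from its start, with 11 reads against 0, and another inside the neighbouring gene Dgkz with 16 against 0. No T3-regulated ATAC peak was within 20 kb of Creb3l1. A peak covered the start of Pdia3 at chr2:121239051-121239650 with 33 reads against 3, and a peak with 62 reads against 2 lay 8499 bases downstream of the start of Creld2. Peaks were called on pooled libraries, so they carry no replicate error.

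**Figure D5:**
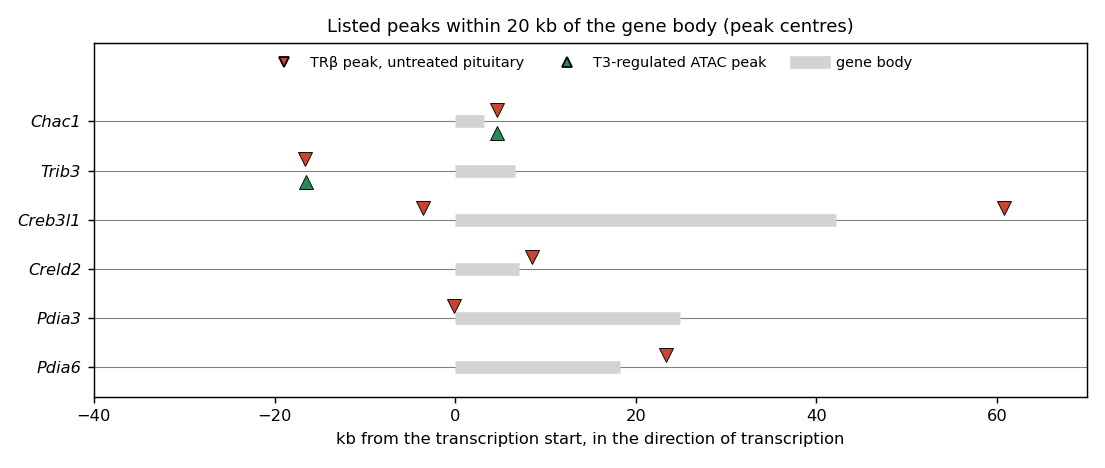
Positions of listed peak centres in kb from the transcription start, in the direction of transcription (x axis), for 6 genes called after T3 in WT mice, with pituitary TRβ peaks as downward triangles, T3-regulated ATAC peaks as upward triangles and gene bodies as grey bars. TRβ and ATAC peaks coincide at Chac1 and Trib3, and the other 4 genes have TRβ peaks alone.

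Chac1 and Trib3 also share a promoter feature. The ATF4 element TGATGNAA was found on either strand in the promoter windows of Chac1, Trib3 and Herpud1, 3 of the 37 members (8.11%), beside 4.51% of all genes. The windows are chr2:119350992-119351291 on the plus strand, chr2:152344011-152344310 on the minus strand and chr8:94386179-94386478 on the plus strand of GRCm38.p6. They are shown with 10 bases on either side, read in the direction of the element, with the match in capitals, since Herpud1 carries the same letters as Chac1 and was not called after T3.
Chac1: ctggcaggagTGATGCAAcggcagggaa
Trib3: cccgcccggcTGATGTAAacctgagcta
Herpud1: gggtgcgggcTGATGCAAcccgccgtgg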

How the data were processed

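RNA was sequenced from whole pituitaries in 18 libraries. Single-end reads of 50 bases were mapped by the authors against mm9 RefSeq transcripts. Their deposited table holds CPM, counts scaled to the total of each library, for 29082 transcripts. Every CPM value came back to a whole read within 0.05 reads in all libraries, so totals per library were recovered and used for edgeR and DESeq2. TRβ peaks were called by the authors with SICER 1.1 on merged libraries, and the deposited lists give read counts, a ratio (fold enrichment) and p-values for each peak; the T3-regulated ATAC list was used for its positions alone, and its deposited p-value column and fold changes, which are the authors' own comparison, were not used. The submitters' processing notes also name Bowtie2, STAR, MACS2 and edgeR.

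One transcript per gene was kept (highest mean CPM). Genes above 1 CPM in all 18 libraries were fitted with limma 3.58.1 (R 4.3.3) on log2(CPM + 1), with the 4 groups in 1 model and Benjamini-Hochberg adjustment over 13145 genes; a gene was called at an adjusted p under 0.05, with a second rule of at least 1.5-fold. The study itself compared pairs of groups. edgeR 4.0.16 and DESeq2 1.42.0 were alternatives. The fits were tested on simulated data. Fold changes on this scale understate changes of genes near 1 CPM. Use of strand in counting is not given in the sources used here, so overlapping genes may share reads. Nothing in the labels says more of how replicates were kept separate than that each is a pool of 3 pituitaries, so p-values measure the spread between such pools. No 2 replicates agreed within sampling noise (chi-square per degree of freedom 4.28 to 265).

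Members and gene lists were chosen with earlier results of these data known. Named with values in every library were Hspa5, Hsp90b1, P4hb, Sec61a1, Xbp1, Herpud1, Atf4 and Ddit3, every member called with 1.5-fold in a pairwise comparison and the 10 members of smallest adjusted p after T3 in WT; from each wider or marker list, at most 5 called genes per direction and comparison. Pdia5 was added after its values were seen, and 1 gene of the wider ERAD list is not reported here. Deviations from group means correlated between libraries of the same replicate number in all 25 pairs (0.13 to 0.82). They also correlated between other numbers of the same library set (0.27 to 0.76), and negatively across sets (-0.78 to -0.24). Only 5 of 18 libraries correlated best with their own number, so these values show the library sets and not a pairing by number. A block on the replicate number therefore also takes up the differences between the library sets. Alternatives were the replicate block, the library set as a term or alone, other scaling, filters, pseudocount and transcript sums, only the compared groups, and each library left out. Coordinates of genes and peaks are mm9; promoter sequences are from RefSeq (GRCm38.p6) and were not combined with them. Protein features were not analysed here.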

Additional observations from a re-analysis of the deposited data

Results flagged for a closer look

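In hypothyroid Thrb-KO mice, replicate 5 had Sdf2l1 at 50.4 CPM, far from the other 4 libraries at 39.6 to 41.5 CPM. Replicate 1 of the same group had Chac1 at 2.80 CPM, below the other 4 at 3.76 to 4.09 CPM. In hyperthyroid Thrb-KO mice, the hormone genes took 13.6% of reads in replicate 5 and 10.9% to 11.4% in the others. These are 3 of 84 groups of values examined, and chance alone flags about 1 in 20.

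The T3 effect differed between genotypes for Chac1, by -1.03 on the log2 scale in Thrb-KO relative to WT mice (limma, adjusted p = 0.0020), and for Creb3l1, by 2.82 (limma, adjusted p = 1.0e-08).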

How the results depend on the processing

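No call of a single member after T3 in WT mice was lost when any 1 of the 18 libraries was left out. Over all comparisons, 587 alternative values of 19 called single-gene results were computed, 8 no longer passed and 0 reversed. Beside each count of members, the share of all genes called in that direction by the same fit stands in brackets. Of the 10 lower members in WT mice, 4 passed when only the compared groups were fitted [6.47%], with no chaperone among them. Members higher after T3 in WT mice [6.89%] numbered 4 with edgeR [9.55%], 5 with DESeq2 [11.9%], the replicate block [10.3%] or the library set term [10.7%], 10 in replicates 1 and 2 alone [13.4%], and 9 with TMM scaling and the library set term together [16.5%], a combination chosen after seeing the data.

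Members lower after T3 in Thrb-KO mice [1.09%] numbered 4 with DESeq2 [2.1%], 7 with the replicate block [2.3%] or only the compared groups [2.12%], 6 with the library set term [2.81%], 8 in replicates 1 and 2 [3.23%], 2 in replicates 3 to 5 [0.989%], and 5 with TMM and set [3.56%]. Leaving out each library gave 1 to 3 [0.882% to 1.88%], with 3 without hyperthyroid WT replicate 3 [1.88%] (Pdia3, Pdia6, Sdf2l1) and 2 without hypothyroid WT replicate 3 or hypothyroid KO replicate 4. Lower in hypothyroid Thrb-KO than WT [4.12%] were 2 with edgeR [5.45%], in replicates 1 and 2 [6.38%] or with only the compared groups [5.71%], 3 with DESeq2 [6.88%] or in replicates 3 to 5 [4.06%], 7 with the replicate block [7.32%], and 8 with the library set term [8.09%] or with TMM and set [10.6%]. Leaving out each library gave 1 to 4 [2.97% to 6.22%], with 4 without hyperthyroid WT replicate 3 (Creb3l1, Derl3, Manf, Pdia5) and 2 without hypothyroid WT replicate 2 or hypothyroid KO replicate 5. In hyperthyroid mice [7.77% higher, 4.3% lower] the library set term [15.5%] or replicates 3 to 5 [13.1%] gave 1 member higher, and replicates 3 to 5 gave 6 lower [4.91%]. For the difference between T3 effects [3.29% higher, 2.17% lower], the replicate block [6.71%, 4.08%], or the library set term [7.52%, 4.53%], gave 3 higher and 2 lower, replicates 1 and 2 gave 2 and 2 [4.81%, 5.14%], TMM and set gave 3 lower [6.82%], and leaving out each library gave 1 to 2 lower [1.67% to 4.33%], with 2 without hypothyroid WT replicate 4 or hyperthyroid WT replicate 3. The replicate block changed no other call of a member than those given with it. The cause of these shifts was not tested.

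Uncalled values near 0 changed sign: Sec61a1 was 0.016 with edgeR, 0.027 with DESeq2, 0.017 with TMM scaling, with or without the set term, and -0.108 to 0.012 with 1 library left out, above 0 without hyperthyroid WT replicate 2. Herpud1 was 0.16 in replicates 1 and 2 and -0.189 to 0.052 with 1 library left out, above 0 without hypothyroid WT replicate 3 or 4. Ddit3 ranged from -0.12 to 0.199, below 0 without hypothyroid WT replicate 1 or 2 or hyperthyroid WT replicate 3 or 4. The 44 genes took 0.692% of TMM-scaled reads in hyperthyroid WT on average. The libraries with and without T3 then overlapped in WT mice and not in Thrb-KO mice. Members near pituitary TRβ peaks numbered 5, 14, 34 and 38 at 0, 5, 50 and 100 kb from the gene body, beside 23.5%, 30.2%, 55.8% and 70.8% of all genes, near cortex peaks 4, 6, 20 and 25, beside 20.5%, 25.6%, 49.1% and 62.9%, and near ATAC peaks 1, 2, 9 and 14, beside 5.01%, 5.62%, 11.8% and 18.2%, with 2 within 20 kb of the start, beside 3.19%. Depth limits Derl3, Trib3 and Chac1 most, and Sec61g was below the filter.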
